A study of Saccharomyces cerevisiae with 10 samples.

Results

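Trehalose is a disaccharide of glucose that budding yeast stores and uses as a protectant when warmed or starved. A complex with Tps1 and Tps2 makes it from glucose 6-phosphate and UDP-glucose: Tps1 forms trehalose 6-phosphate and Tps2 removes the phosphate, while Tps3 and Tsl1 are paralogous regulatory subunits. Breakdown to glucose runs through the cytosolic neutral trehalase Nth1 and its paralog Nth2, and through the acid trehalase Ath1, which acts outside the cytosol. These 7 genes, TPS1, TPS2, TPS3 and TSL1 for synthesis and NTH1, NTH2 and ATH1 for hydrolysis, were taken by name from 5449 named genes of an Affymetrix array series. TPS1 (YBR126C) and NTH2 (YBR001C) lie on chromosome II, TPS2 (YDR074W) and NTH1 (YDR001C) on IV, TPS3 (YMR261C) and TSL1 (YML100W) on XIII, and ATH1 (YPR026W) on XVI. Each was measured by 1 probe set, and no filter on low values was applied, so all 7 were tested.

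The arrays came from 5 strains with temperature-sensitive alleles of the SCF ubiquitin ligase: cdc53-1 in the cullin (strain py175), cdc34-3 in the ubiquitin-conjugating enzyme (py24), cdc4-3 in an F-box protein (py187), and skp1-11 (W303) and skp1-25 (py1374) in the adaptor Skp1. Cells grew in rich YPDA medium at 25 °C, called room temperature (RT) in the labels, and were sampled there or after 1 h at 35 °C. Each strain gave 1 array at either temperature, 10 in all, and a control strain with functional SCF was not analysed here. Warming and loss of SCF function therefore cannot be told apart in the shift.

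Levels below are deposited values on a log2 scale, and a change is the level at 35 °C minus that at RT within a strain. Array medians lay between 10.96 and 11.14. The cdc53-1 arrays stood apart in their averages of a-specific and haploid-specific markers. Their 6 a-specific genes lay between 4.81 and 8.47 and averaged 7.01 at RT, against averages of 11.10 to 11.89 in the other strains. Of these genes, BAR1 was also low in cdc4-3 and skp1-25. BAR1 levels at RT and 35 °C were 7.91 and 7.64 in cdc53-1, 7.57 and 7.26 in cdc4-3, and 7.86 and 7.71 in skp1-25. In cdc34-3 and skp1-11 BAR1 was at 11.6 or above. The 5 haploid-specific genes averaged 7.24 in cdc53-1 at RT, against 11.09 to 11.21 in the other strains. Among them, STE4 was nearer to the other strains, at 10.11 and 10.82 in cdc53-1 at RT and 35 °C. Of 4 alpha-specific genes, SAG1 lay between 9.30 and 10.55 and the other 3 at 8.2 or below on every array. Changes without this strain are given after the 4 members that passed the test and for the other 3.

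The genes for trehalose breakdown were higher at 35 °C, whereas TPS1, TPS2 and TPS3 showed no change that passed the test. Each strain's RT array served as its own baseline (strain as a block), the strains were the replicates, and limma called 4 of the 7 members higher and 0 lower: ATH1, NTH1, NTH2 and the regulatory subunit gene TSL1. Over all 5449 genes, 13.0% were called higher and 4.61% lower at an adjusted p under 0.05 (706 and 251 genes). That balance depends on scaling, with 524 higher and 503 lower when each array was centred on its median, and 487 and 530 after quantile normalization. The same number of members, 4, was called higher in each case, but NTH2 only just (limma adjusted p = 0.0499 and 0.0454). The median change over the 7 members was 0.43, against 0.05 over all genes. The RNA came from whole cultures, so a change in fewer cells and a smaller change in every cell cannot be told apart.

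**Figure D1:**
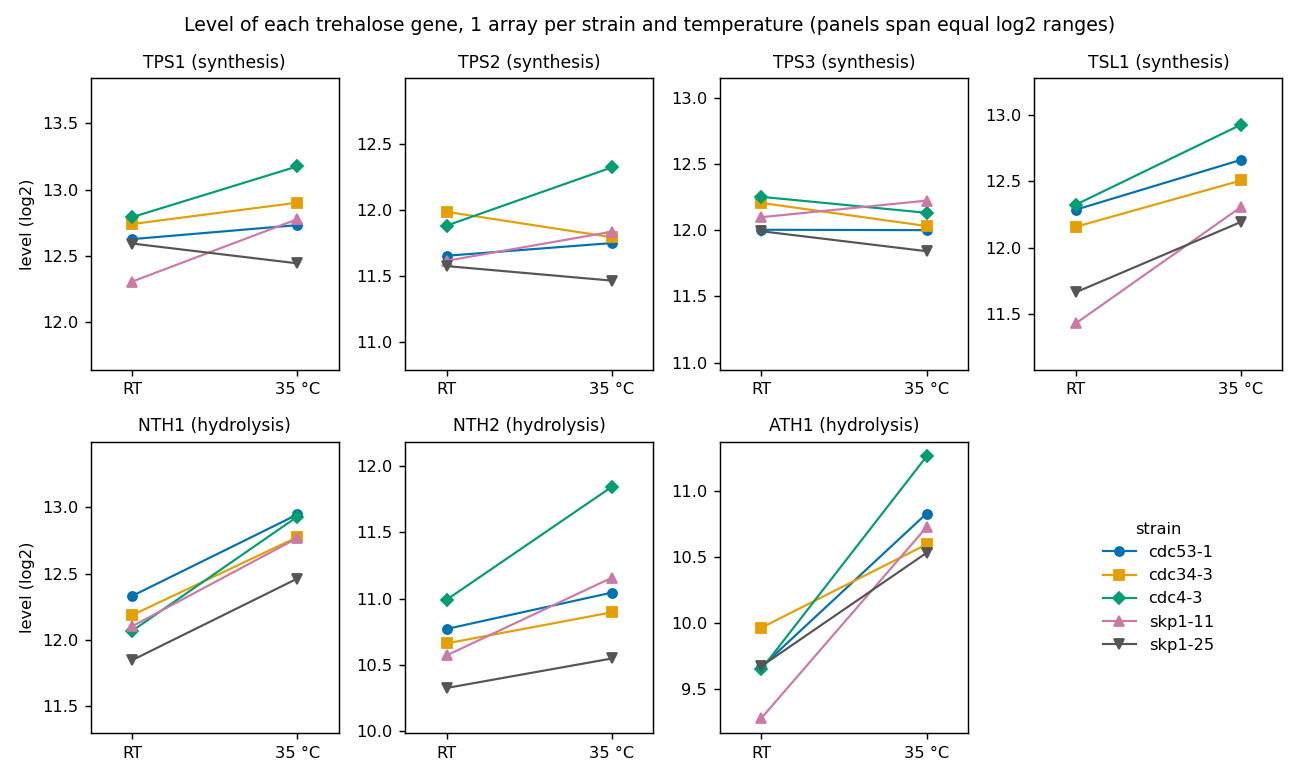
Level (log2, vertical axis) of each trehalose gene at RT and 35 °C, with 1 panel per gene and 1 line per strain joining its 2 arrays. All 5 lines climb for TSL1, NTH1, NTH2 and ATH1, while those of TPS1, TPS2 and TPS3 run in both directions.

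ATH1, the acid trehalase gene needed for growth on external trehalose, had the largest change of the 7. From RT to 35 °C its level went from 9.66 to 10.83 in cdc53-1, 9.96 to 10.59 in cdc34-3, 9.65 to 11.26 in cdc4-3, 9.28 to 10.72 in skp1-11 and 9.67 to 10.53 in skp1-25. Every array at 35 °C lay above every array at RT, a separation that 6.35% of all genes showed in this direction. ATH1 rose from 9.65 ± 0.24 to 10.79 ± 0.29 (SD, n = 5 each), a change of 1.14 ± 0.40, or 2.20-fold (limma adjusted p = 0.00719). The rise ranged from 1.55-fold in cdc34-3 to 3.05-fold in cdc4-3, and only 2.20% of all genes had a larger mean rise. Genes of the same brightness class as ATH1, the second dimmest of 5 by mean level, had a median change of 0.04.

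NTH1, which encodes the main neutral trehalase, gave the most even response. Its level went from 12.33 to 12.95 in cdc53-1, 12.19 to 12.78 in cdc34-3, 12.07 to 12.93 in cdc4-3, 12.10 to 12.77 in skp1-11 and 11.85 to 12.46 in skp1-25. Here too the temperatures did not overlap, since the lowest array at 35 °C (skp1-25) was above the highest at RT (cdc53-1). NTH1 rose by 0.67 ± 0.11 (SD, n = 5; limma adjusted p = 0.00401), or 1.59-fold. Changes were 0.59 in cdc34-3, 0.62 in cdc53-1, 0.62 in skp1-25 and 0.67 in skp1-11, with 0.86 in cdc4-3.

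NTH2, the paralog of NTH1, rose less evenly and close to the threshold. Its level at RT and then 35 °C was 10.77 and 11.04 in cdc53-1, 10.66 and 10.90 in cdc34-3, 10.99 and 11.85 in cdc4-3, 10.57 and 11.16 in skp1-11, and 10.32 and 10.55 in skp1-25. The groups overlapped because skp1-25 at 35 °C lay below 4 of the RT arrays, though each strain was higher at 35 °C than at its own RT. NTH2 rose by 0.44 ± 0.28 (SD, n = 5; limma adjusted p = 0.0413), or 1.35-fold. The change was 0.85 in cdc4-3 and 0.59 in skp1-11, and between 0.22 and 0.28 in the other 3 strains. The NTH2 call was lost whenever any 1 strain was left out (adjusted p from 0.0617 to 0.118) and without the strain block (adjusted p = 0.271), while its change stayed between 0.33 and 0.49.

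The change of NTH1 exceeded that of NTH2 in 5 of 5 strains, by 0.24 ± 0.18 on average (SD, n = 5). The gap was 0.01 in cdc4-3 and 0.08 in skp1-11, and 0.34 to 0.39 in the other 3. Probe sequences were not used here, so cross-hybridization between the paralogs was not tested. Probe sets can also differ in how steeply they respond, which limits comparisons of change between genes.

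TSL1, a regulatory subunit gene of the synthase complex, was the 1 synthesis gene that passed. In the skp1 strains its level went from 11.43 to 12.31 (skp1-11) and from 11.66 to 12.19 (skp1-25). It went from 12.29 to 12.66 in cdc53-1, 12.16 to 12.51 in cdc34-3 and 12.32 to 12.93 in cdc4-3. Both skp1 strains started below the other 3 and were also the lowest at 35 °C, so the groups overlapped. TSL1 rose by 0.55 ± 0.21 (SD, n = 5; limma adjusted p = 0.0123), or 1.46-fold. The change was largest in skp1-11 (0.88) and smallest in cdc34-3 (0.35). The TSL1 call was lost without cdc4-3 (adjusted p = 0.0525) and without the strain block (adjusted p = 0.140), and over all alternatives its adjusted p ranged from 0.00398 to 0.140.

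The strain cdc53-1 had low averages of a-specific and haploid-specific markers. Without it, the changes were 1.14 for ATH1, 0.68 for NTH1, 0.59 for TSL1 and 0.47 for NTH2. Their adjusted p-values by limma were 0.0195, 0.0105, 0.0232 and 0.0658, so 3 of the 4 calls were made without it. TPS1, TPS2 and TPS3 then changed by 0.22, 0.09 and -0.08, and none passed the test. ATH1 and NTH1 were called under all 11 alternatives tried, with changes of 1.02 to 1.27 and 0.59 to 0.69.

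**Figure D2:**
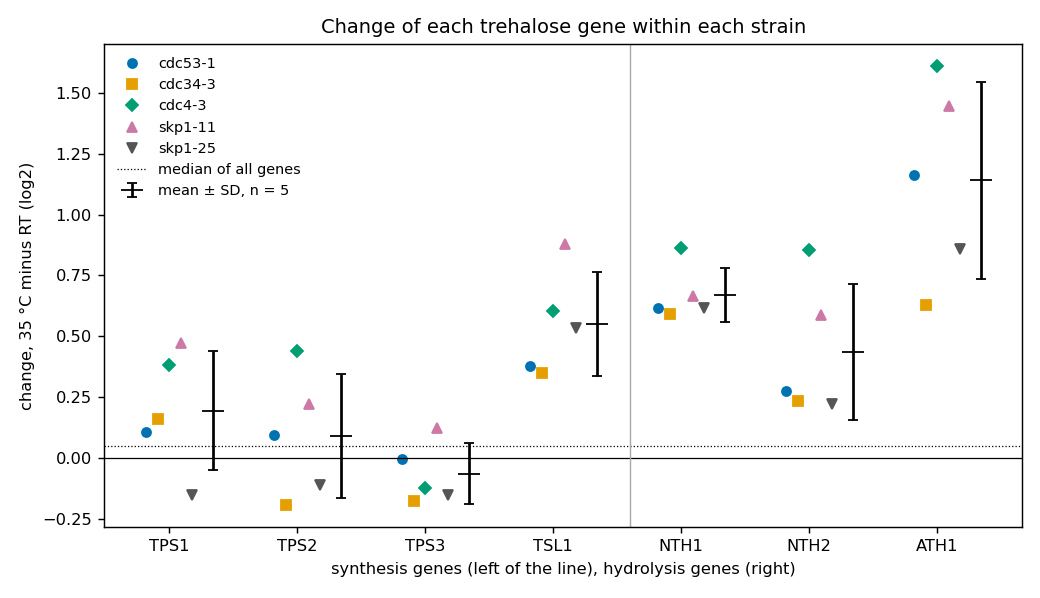
Change from RT to 35 °C (log2, vertical axis) of each gene in each strain, with the mean and SD over the 5 strains beside the points and the median of all genes as a dotted line. The hydrolysis genes, right of the vertical line, lie between 0.22 and 1.61, and TPS1, TPS2 and TPS3 between -0.19 and 0.47. TSL1, also a synthesis gene, lies between 0.35 and 0.88, within the range of the hydrolysis genes.

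TPS1, the synthase gene, ranged from 12.30 to 12.79 at RT and from 12.44 to 13.18 at 35 °C. It was higher at 35 °C in 4 of 5 strains, with 0.47 in skp1-11 and 0.38 in cdc4-3 at one end and -0.15 in skp1-25 at the other. Its mean change of 0.19 ± 0.25 did not pass the test (SD, n = 5; limma adjusted p = 0.219, 95% interval -0.05 to 0.44). That interval allows a rise of the size seen for NTH2.

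TPS2, the phosphatase gene, ranged from 11.57 to 11.98 at RT and from 11.46 to 12.32 at 35 °C. Its change was 0.44 in cdc4-3, 0.22 in skp1-11 and 0.10 in cdc53-1, against -0.11 in skp1-25 and -0.19 in cdc34-3. The strains thus split in sign around a mean of 0.09 ± 0.25 (adjusted p = 0.576, 95% interval -0.16 to 0.34). TPS3, the other regulatory subunit gene, varied least: 11.99 to 12.25 at RT and 11.84 to 12.22 at 35 °C. Only skp1-11 had a higher level at 35 °C (0.13), and the mean change was -0.07 ± 0.13 (adjusted p = 0.543, 95% interval -0.23 to 0.10).

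The regulatory subunit paralogs differed in the size of their change. In each of the 5 strains the change of TSL1 was larger than that of TPS3, from 0.38 in cdc53-1 and 0.52 in cdc34-3 to 0.68 in skp1-25, 0.73 in cdc4-3 and 0.76 in skp1-11. The mean gap was 0.61 ± 0.16 (SD, n = 5). Differences between these genes were not tested, and probe sets can differ in how steeply they respond. TSL1 also changed more than TPS1 and TPS2 in 5 of 5 strains, by 0.35 ± 0.20 and 0.46 ± 0.22.

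Within each strain, the average change of the 3 hydrolysis genes was larger than that of the 4 synthesis genes. Each of NTH1, NTH2 and ATH1 was also paired with each of TPS1, TPS2 and TPS3, the synthesis genes that did not pass. This gave 9 pairs per strain, which share genes and arrays. The hydrolysis gene had the larger change in 45 of 45. TPS1, TPS2 and TPS3 were set apart by the test on these same changes, so this order follows at least partly from that choice and is no separate support. TSL1 did not follow this order, since a hydrolysis gene exceeded it in 10 of 15 comparisons. Averaged over the 3 hydrolysis genes, the change was 0.48 in cdc34-3, 0.57 in skp1-25, 0.68 in cdc53-1, 0.90 in skp1-11 and 1.11 in cdc4-3. Averaged over the 4 synthesis genes, it was 0.04, 0.03, 0.14, 0.42 and 0.33 in that order. These means describe the 7 genes on these arrays and were given no test of their own.

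Strains were next compared for the size of the shift. The largest change fell in cdc4-3 for 4 members (TPS2, NTH1, NTH2 and ATH1) and in skp1-11 for 3 (TPS1, TPS3 and TSL1). These strains also held the largest change for 26.4% and 25.7% of all genes. The smallest change fell in cdc34-3 for 5 members and in skp1-25 for 2, against 23.0% and 23.5% of all genes. Changes of single strains rest on 1 pair of arrays and were not tested.

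Skp1 is the only gene product with 2 alleles in the series, so the changes in skp1-11 and skp1-25 were set against those in cdc53-1, cdc34-3 and cdc4-3. Limma called 0 of 7 members and 0 of 5449 genes (0%), with 168 genes at an unadjusted p under 0.05. The difference furthest from 0 was that of TSL1, whose change averaged 0.71 in the skp1 strains and 0.44 in the others (difference 0.26, 95% interval -0.17 to 0.69, adjusted p = 0.996). It was 0.09 without skp1-11 and 0.44 without skp1-25, and without skp1-11 that of TPS1 was further from 0 (-0.37). For ATH1 the means were 1.15 and 1.13 (95% interval of the difference -0.82 to 0.85). The other 5 differences lay between -0.06 and 0.09. The intervals for TSL1 and NTH2 (-0.66 to 0.56) reach beyond the mean rise of either gene, so equal responses are not shown.

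Levels of the members were also ranked across strains. Averaged over both temperatures, cdc4-3 was highest for 6 of 7 genes and skp1-25 lowest for 5, where 20.9% and 22.8% of all genes had these strains at those ends. At 35 °C, skp1-25 was the lowest strain for 7 of 7 members (23.2% of all genes), and it was so too when arrays were centred on their medians (18.4%). At RT the lowest strain was skp1-25 for 4 members and skp1-11 for 3, against 20% and 25.9% of all genes. The cdc4-3 array at 35 °C had the highest median of the 10, and after centring cdc4-3 was highest for 5 of 7 members averaged over both temperatures (14.2% of all genes) and skp1-25 lowest for 4 (19.3%). All 7 genes were read from the same arrays, so they are not independent, and the counts were not tested.

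A moderated F test asked whether levels differed between strains by more than the residual left after strain and temperature. It called 0 of 7 members, against 8.75% of all genes (477), with unadjusted p = 0.00503 for TSL1, 0.0106 for NTH2 and 0.0245 for NTH1. TSL1 came closest after adjustment (adjusted p = 0.0535), ordered from cdc4-3 (12.63 over both temperatures) through cdc53-1 (12.47), cdc34-3 (12.33) and skp1-25 (11.93) to skp1-11 (11.87). NTH2 spanned 0.98, from 11.42 in cdc4-3 to 10.44 in skp1-25 (adjusted p = 0.0784). TSL1 was called in 3 of 10 alternatives and NTH2 in 1, and neighbouring strains in these orders were not tested against each other. Strain background, culture and allele cannot be told apart in this test.

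Genes around the pathway were followed through lists, whose counts stand beside the 13.0% of all genes called higher and 4.61% called lower. In lists of 4 to 11 genes, single calls say little against these shares. Among 6 genes that supply glucose 6-phosphate and UDP-glucose, 1 rose and 1 fell, and both encode phosphoglucomutases. PGM2, the major isoform, rose by 0.86 ± 0.26 (SD, n = 5; limma adjusted p = 0.00635), and PGM1 fell by 1.00 ± 0.54 (adjusted p = 0.0199). The PGM1 call was lost without the strain block, without cdc53-1 and without skp1-11 (adjusted p = 0.0732, 0.0502 and 0.0539). The median of the list was 0.11.

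Of 4 genes whose products act on neutral trehalase or are paralogs of its inhibitor, 1 rose. DCS2, the paralog of the Nth1 inhibitor gene DCS1, went from 10.07 ± 0.38 to 11.43 ± 0.68, a change of 1.36 ± 0.51 (SD, n = 5; limma adjusted p = 0.00796). DCS1 changed by 0.27 ± 0.20 (adjusted p = 0.0787). BMH1 and BMH2, which encode the 14-3-3 proteins that activate Nth1, changed by 0.27 ± 0.21 and 0.13 ± 0.14 (adjusted p = 0.0831 and 0.244). With a variance trend in the fit, 3 of the 4 were called higher.

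None of 5 genes for transcriptional control and its kinase Rim15 passed in either direction. The largest change there was that of RIM15, at 0.15 ± 0.18 (SD, n = 5; adjusted p = 0.226). Protein kinase A, driven by cAMP, phosphorylates Nth1 and restrains stress transcription. Of its 11 measured pathway genes, 3 rose and 0 fell, but 2 were called higher and 2 lower after either median centring or quantile normalization. Both cAMP phosphodiesterase genes were among them, with PDE1 up by 0.99 ± 0.56 and PDE2 by 0.68 ± 0.18 (adjusted p = 0.0216 and 0.00635), along with the Ras inhibitor gene IRA2 at 0.27 ± 0.11 (adjusted p = 0.0392). PDE1 missed the threshold without cdc4-3 and without skp1-11 (adjusted p = 0.0835 and 0.0660), and IRA2 was called in 3 of 11 alternatives.

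Glycogen, the other storage carbohydrate, shares UDP-glucose with trehalose. Of 8 genes, 3 rose and 1 fell, with a list median of 0.28. The phosphorylase gene GPH1 rose by 0.70 ± 0.30, the debranching enzyme gene GDB1 by 0.42 ± 0.24, and GAC1, a phosphatase targeting subunit gene, by 1.66 ± 0.11 (SD, n = 5; limma adjusted p = 0.0124, 0.0341 and 0.000479). GSY1, a glycogen synthase gene, fell by 0.92 ± 0.52 (adjusted p = 0.0230). GDB1 was called in 6 and GSY1 in 8 of 11 alternatives. GAC1 was dim, at 7.16 ± 0.69 at RT (SD, n = 5), and was left out with the dim genes in 1 alternative. It was called in the other 10, with a change of 1.40 after quantile normalization.

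**Figure D3:**
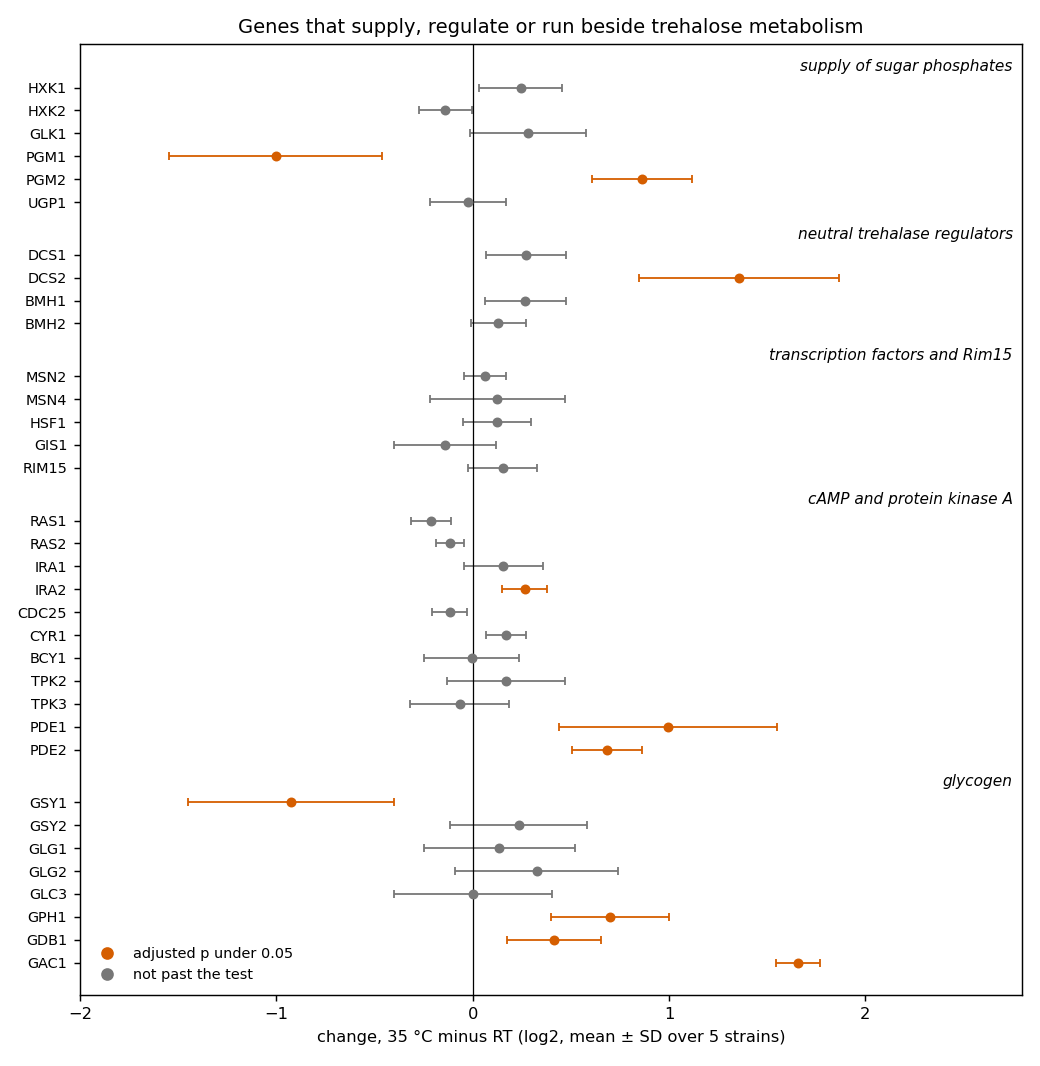
Mean change from RT to 35 °C (log2, horizontal axis) with its SD over 5 strains for genes that supply, regulate or run beside trehalose metabolism, by list. Orange points passed limma's test, namely PGM2, DCS2, PDE1, PDE2, GPH1, GDB1, GAC1 and IRA2 above 0 and PGM1 and GSY1 below it.

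For scale, all 7 stress reference genes rose, a list chosen with their rise in these arrays known. The small heat shock protein gene HSP26 changed most, by 2.67 ± 0.64, followed by TFS1 at 1.52 ± 0.24, SSA4 at 1.41 ± 0.40, DDR2 at 1.33 ± 0.53 and HSP12 at 1.30 ± 0.24 (SD, n = 5). The catalase gene CTT1 changed by 0.56 ± 0.29 and the disaggregase gene HSP104 by 0.47 ± 0.30. The change of ATH1 was thus below 5 of the 7, and those of TSL1 and NTH2 were close to CTT1 and HSP104, the lowest of the list. HSP104 was called in 6 of 11 alternatives and CTT1 in 7.

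The genes most like each member were found by Pearson correlation of level across the 10 arrays, among genes brighter than the median gene. The arrays share strains and temperatures, so the coefficients are descriptive. TSL1 was most like SOL4 (r = 0.984), MIC26 (0.968) and BDH1 (0.962). NTH1 was most like FLC2 (0.982), PGM2 (0.975) and PUN1 (0.969), and ATH1 most like TFS1 (0.964), GRE3 (0.961) and PST2 (0.960). NTH2 was nearest to POP7 (0.948), PHB2 (0.945) and MNR2 (0.933).

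TFS1 also stands in the stress reference list and PGM2 in the precursor list. The genes nearest to TPS1 were PET54 (0.95), MDL2 (0.928) and MGR2 (0.911). TPS2 lay nearest to POM33 (0.944), GUT2 (0.920) and RSM10 (0.908), and TPS3 had the weakest likeness, to RAM2 (0.861), SPN1 (0.839) and NPC2 (0.838). No member was among the 3 nearest genes of another, but NTH2 and ATH1 were not brighter than the median gene and so could not be. Within the family, NTH1 and ATH1 were the most alike (r = 0.906 over 10 arrays), followed by TPS1 and TPS2 (0.867). TPS3 had r of 0.64 with TPS2, 0.41 with TPS1 and 0.40 with NTH2, but 0.09 with TSL1, -0.07 with NTH1 and -0.10 with ATH1. Likeness depended on the measure. Over the 5 within-strain changes, TPS2 and ATH1 were the most alike (r = 0.983). By that measure TPS3 had r of 0.68 with TSL1, 0.57 with TPS1, 0.56 with ATH1, 0.42 with TPS2, 0.26 with NTH2 and -0.03 with NTH1.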

How the data were processed

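The value table held deposited probe set levels for 10 Affymetrix arrays, made from biotin-labelled cRNA per the labels' protocols. Their log2 scale was inferred from the range of the deposited values. How probes were summarised and normalized is not given in the sources used here. Of 5716 features, 5498 had 1 gene symbol in the platform annotation, 0 had several and 218 were unnamed and unused. Symbols were updated through a RefSeq gene table (12 changed), and for 47 genes the brightest probe set was kept, leaving 5449.

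The tests used limma 3.58.1 under R 4.3.3 (lmFit, eBayes, two-sided, Benjamini-Hochberg over all genes, threshold 0.05) and tested on simulated data. Strain, taken from the labels, was the block: after the mean of each temperature was removed, a strain's own arrays correlated at r = 0.43 to 0.77 and arrays of different strains at 0.18 at most. Removing that mean by itself lowers correlations between strains, so the gap between these values is partly built in. No label tells of repeated cultures, and the p-values rest on how much strains differ, which may be partly technical. The number of arrays limits the precision. No pair of arrays was identical (r from 0.908 to 0.981).

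The members and gene lists were chosen with earlier results of these data known. Named genes are the 7 members, genes of the pathway lists past the threshold or otherwise the largest change of a list, and the 3 nearest genes by correlation. DCS1, BMH1, BMH2, SAG1, BAR1, STE4, ECM15, PPH3 and CCL1, which fall outside this rule, were named after their values were seen. Alternatives were 2 rescalings, no dim genes (lowest 20%), a variance trend, averaged probe sets, no block and each strain left out.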

Additional observations from a re-analysis of the deposited data

Results flagged for a closer look

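The change of NTH1 in cdc4-3, at 0.864, stood apart from those of the other 4 strains, which ran from 0.59 to 0.67. It was the only 1 of 21 groups of 5 values tested (levels at RT, levels at 35 °C and changes of the 7 genes) in which the end value was this far from its neighbour by Dixon's criterion. Chance alone flags about 1 group in 20. The cdc4-3 array at 35 °C also had the highest median of the 10, and its part in this value was not tested. Without cdc4-3, NTH1 rose by 0.62 (limma adjusted p = 0.0167).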

How the results depend on the processing

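Directions of the temperature shift were the same for all 7 members under the 11 alternatives, and 69 of 77 values kept their side of the threshold. The 8 that did not were lost calls of NTH2 and TSL1 when a strain or the strain block was left out. Fitted without the replicate block, 282 genes were higher, 67 lower and 2 members higher (NTH1 and ATH1). With 1 strain left out, 291 to 527 genes were higher, 80 to 136 lower and 2 to 3 members higher, the fewest of each without cdc4-3. Such fits have fewer arrays. Genes called lower numbered 503 after centring and 530 after quantile normalization. In the test of levels between strains, TSL1 was the 1 member called after centring and without dim genes, and 2 members, TSL1 and NTH2, were called with a variance trend. That test called 162 to 459 genes with 1 strain left out.

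No member was called in the skp1 contrast, and signs of uncalled differences turned for all members but TSL1. Leaving out 1 strain gave ranges of -0.37 to 0.25 for TPS1, -0.22 to 0.11 for TPS2, -0.051 to 0.22 for TPS3, 0.09 to 0.44 for TSL1, -0.10 to 0.039 for NTH1, -0.23 to 0.15 for NTH2 and -0.28 to 0.31 for ATH1, which was -0.028 after quantile normalization. The cause was not tested. Averaging probe sets changed no member's value.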

Other observations

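The genes next to the 7 members on their chromosomes, by order in the RefSeq assembly R64, were examined after the members' values were seen. Of 14 neighbours, 13 were measured, and their median change was 0.08. Limma called 2 higher and 0 lower: ECM15, next to NTH2, at 0.42 ± 0.17 (SD, n = 5; adjusted p = 0.0170), and PPH3, next to TPS2, at 0.33 ± 0.21 (adjusted p = 0.0497). Of all genes, 13.0% were called higher, so this count is near the share over all genes. The neighbours of ATH1, NTH1 and TSL1 did not pass the test, and CCL1, beside ATH1, changed by -0.33 ± 0.21 (adjusted p = 0.0529).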
